A study of Homo sapiens with 15 samples.

Results

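The comparison described here was between PEO4 cells exposed to 32 µM cisplatin and untreated PEO4 cells, with 3 Pt-exo-seq libraries in each group, that is 6 of the 15 libraries of the series. PEO4 is an ovarian cancer line with clinical resistance to platinum, and it comes from the same patient as the platinum-sensitive line PEO1. Both groups were the same line and differed in the labels only by cisplatin. The other 9 libraries (PEO4 at 16 µM, PEO1 untreated and PEO1 at 16 µM, 3 each) entered the fits to estimate the spread between replicates. The labels gave a replicate number and not whether replicates were separate cultures, so p-values measure the spread between these libraries. Counts of DNA fragments carry no markers of cell type, and the identity of the line could not be checked in this way.

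Cisplatin binds the N7 position of purines and mostly joins adjacent guanines on 1 strand, and adjacent adenine and guanine less often. These crosslinks bend the DNA and block polymerases, and cells remove them by nucleotide excision repair or bypass them with translesion polymerases. Cisplatin also forms crosslinks between the strands, which cells process through the Fanconi anaemia and homologous recombination pathways. In Pt-exo-seq, exonucleases digest sheared DNA until an adduct stops them, and the stop becomes the end of a sequenced read. Fragments without an adduct can also survive digestion, so a count holds background, copy number and mappability as well as adducts, and no count alone is an adduct level. Every value below is relative to the total of its library, so a change in the total number of adducts in the genome is not visible.

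Counts on chromosomes 1 to 22 were summed over 3 kinds of region on hg19 (GRCh37). There were 6497 tested bodies of protein-coding genes of at least 50 kb (median count 1437 per library), 2691 tested bins of 1 Mb (median 13343), and 39 chromosome arms (median 676915). The untreated libraries held 36797836, 47230205 and 34110283 counts on these chromosomes, and the treated libraries 28014025, 26910895 and 27057875. A level is given as CPM, the count of a region for every 1000000 counts of its library on these chromosomes. Windows at a count of 0 made up 15.65% to 17.96% of each untreated library and 19.93% to 22.95% of each treated library, and the part of depth in the results was not tested. No intervals for counting error are given in the text. In 1 Mb bins counting alone gave a standard deviation (SD) near 0.0155 on the log2 scale, and the replicates differed by more than that. In a typical gene body it gave 0.0468 to 0.0485 in the treated libraries. Counting error is larger in gene bodies of fewer counts, so treated values that lie close together there do not show precision.

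GC content is the share of G and C bases in a region, and the change at 32 µM moved with it at all 3 scales. Stretches of 150 bases from the middle of 3 gene bodies described below are printed to show sequence of low and high GC content (GRCh37, gene strand, 5′ to 3′). A short stretch can differ from its gene: the whole bodies had 37.18% GC in HIF1A, 35.2% in TMEM196 and 55.24% in DNAH1. Capitals mark adjacent GG or CC, the guanine pairs on the printed or the opposite strand.
HIF1A, chr14:62188530-62188679, plus strand, 28.0% GC, 6 GG or CC pairs, 13 bases exonic and the rest intronic: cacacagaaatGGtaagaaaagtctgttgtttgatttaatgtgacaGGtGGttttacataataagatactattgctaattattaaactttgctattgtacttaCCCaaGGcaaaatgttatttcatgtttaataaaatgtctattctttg
TMEM196, chr7:19786015-19786164, minus strand, 35.3% GC, 8 pairs, intronic: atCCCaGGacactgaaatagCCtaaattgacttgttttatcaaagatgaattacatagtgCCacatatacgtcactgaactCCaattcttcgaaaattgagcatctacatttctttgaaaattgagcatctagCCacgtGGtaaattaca
DNAH1, chr3:52392347-52392496, plus strand, 66.7% GC, 44 pairs, intronic: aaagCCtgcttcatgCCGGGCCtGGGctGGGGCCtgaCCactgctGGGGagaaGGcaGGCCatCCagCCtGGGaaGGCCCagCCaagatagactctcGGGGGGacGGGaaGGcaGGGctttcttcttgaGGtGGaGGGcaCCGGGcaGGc

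AT-rich bins held more and GC-rich bins fewer counts in 2 of the 3 treated libraries, and the remaining treated library looked like the untreated ones. Bins were split by GC content into 5 bands of equal size, and each library is given as the median log2 ratio to the mean of the untreated libraries. In the band of lowest GC content (33.5% to 37.0%), replicate 2 at 32 µM stood at 0.288, replicate 3 at 0.205 and replicate 1 at -0.019, while the untreated libraries stood at -0.016, 0.065 and -0.048. In the band of highest GC content (44.6% to 59.1%), replicate 2 stood at -0.282, replicate 3 at -0.232 and replicate 1 at 0.015, against 0.018, -0.068 and 0.048 untreated. The medians were lower with each step up in GC content in replicates 2 and 3, and the middle band was near 0 in both (0.012 and 0.023). In the 27 bins of highest GC content (54.6% or more) replicate 1 stood at 0.105, replicate 2 at -0.401 and replicate 3 at -0.260.

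The profiles of single libraries over the 2691 bins showed the same split. The SD of the log2 ratio across bins was 0.0466 in replicate 1, 0.211 in replicate 2 and 0.168 in replicate 3. Each untreated library set against the other 2 gave 0.0461, 0.0855 and 0.0674, so replicate 1 lay within the untreated range and replicates 2 and 3 lay above it. A curve in GC content described 12.7% of the variance across bins in replicate 1, 94.1% in replicate 2 and 90.9% in replicate 3. After that curve was taken out the SDs were 0.0435, 0.0513 and 0.0507, against 0.0398 to 0.0428 for the untreated libraries. Over gene bodies the curve described 2.81%, 71.7% and 60.2% of the variance in replicates 1, 2 and 3.

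**Figure D1:**
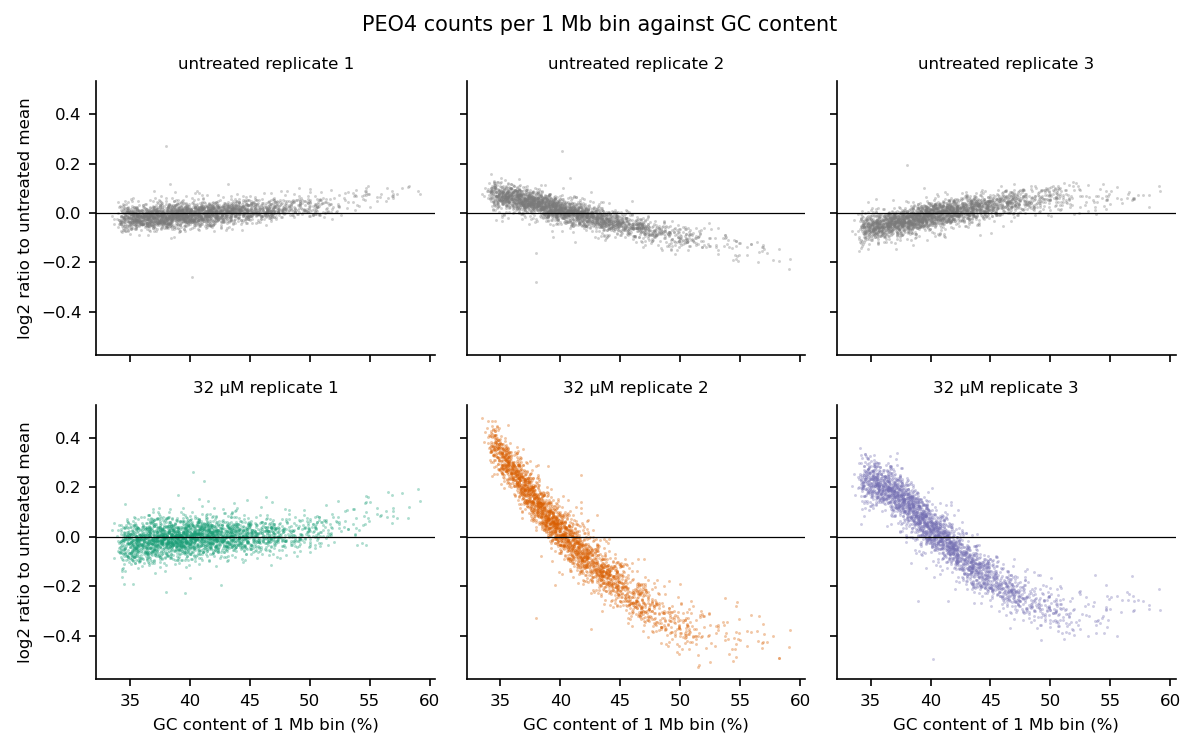
Each point is a 1 Mb bin, with its GC content in percent on the x axis and the log2 ratio of a library to the mean of the 3 untreated PEO4 libraries on the y axis, 1 panel per library. Replicates 2 and 3 at 32 µM run from above 0 in AT-rich bins to below 0 in GC-rich bins, replicate 1 stays near 0, and untreated replicate 2 has a weaker slope of the same sign.

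The slope of the log2 ratio per 10 percentage points of GC content gave 1 value per library. The treated libraries had slopes of 0.03, -0.44 and -0.35, and the untreated libraries 0.03, -0.11 and 0.08. Replicates 2 and 3 at 32 µM were below every untreated library, replicate 1 was within their range, and the groups overlapped. The group means were -0.25 ± 0.25 (SD, n = 3) and -0.0004 ± 0.0976 (SD, n = 3), a difference of -0.25 that did not pass the exact two-sided permutation test (p = 0.2, where 3 against 3 can give no less than 0.1). Without treated replicate 2 the difference was -0.16, and without treated replicate 1 it was -0.39. Steep slopes were also found elsewhere in the series. Replicate 1 of PEO4 at 16 µM had a slope of -0.47 with 0.01 and -0.05 in the other 2 libraries of its group, and replicate 1 of PEO1 at 16 µM had a slope of 0.40 with -0.04 in each of the other 2.

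**Figure D2:**
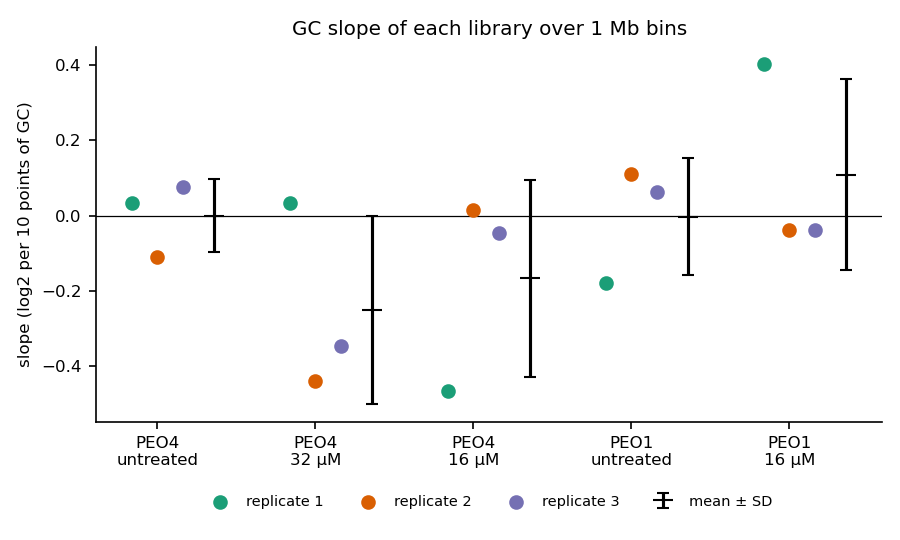
Slope of the log2 ratio on GC content over 1 Mb bins (log2 per 10 points of GC, y axis) for each of the 15 libraries by group (x axis), with mean ± SD of 3 libraries. Replicates 2 and 3 of PEO4 at 32 µM (-0.44 and -0.35) and replicate 1 of PEO4 at 16 µM (-0.47) lie lowest, and replicate 1 of PEO1 at 16 µM (0.40) lies highest.

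Changes that replicates share were looked for by giving each treated library its own untreated library, so that no control was shared. Across the 2691 bins, the change in replicate 2 correlated with that in replicate 3 at r = 0.908, and the change in replicate 1 correlated with these at 0.032 and 0.02. Once the GC curve was taken out of each change, the 3 correlations were 0.177 for replicates 2 and 3, and 0.073 and 0.007 for replicate 1 with each. Over gene bodies the correlation of replicates 2 and 3 was 0.601 before and 0.078 after. These correlations are across regions of the same genome, which share base composition and are not independent, and they are given as descriptions.

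Arm totals followed the base composition of the chromosomes. The gene-dense arms of chromosomes 19 and 22 were lowest at 32 µM and AT-rich 4q, 6q and 13q highest. None of the 39 arms had an adjusted p-value under 0.05 (0%) in the quasi-likelihood test of edgeR with Benjamini-Hochberg adjustment, where the smallest was 0.284, and the 2 arms with an unadjusted p-value under 0.05 were 11p and 15q (5.13%). The log2 changes of the arms had an SD of 0.0686 and ran from -0.18 (19p) to 0.10 (4q).
The arm 4q (37.46% GC) took 29111, 30181 and 28616 CPM in the untreated libraries and 28994, 33225 and 32160 at 32 µM. Replicates 2 and 3 were above and replicate 1 was within the untreated values, and the log2 change was 0.10 (SE 0.0628, adjusted p = 0.284). The arm 19p (49.56% GC) took 11716, 10833 and 12292 CPM untreated and 11945, 9152 and 9714 at 32 µM, with replicates 2 and 3 below the untreated values and replicate 1 within them. Its log2 change was -0.18 (SE 0.143, adjusted p = 0.304). For 22q the log2 change was -0.16 (SE 0.119), for 19q -0.15 (SE 0.114) and for 16p -0.13 (SE 0.0814), and for 6q, 13q and 3q it was 0.08 (SE 0.0486), 0.07 (SE 0.0394) and 0.05 (SE 0.0320).
All 3 treated libraries lay below all 3 untreated ones in 10q and 15q (5.13% of arms) and above them in no arm (0%). The arm 15q took 32567, 32305 and 32654 CPM untreated and 32279, 31130 and 31195 at 32 µM, where replicate 1 was under the lowest untreated library by a small margin. Its log2 change was -0.04 (SE 0.0167, unadjusted p = 0.0231, adjusted p = 0.284 by edgeR), and the exact permutation test gave 0.1 for both arms, or 0.39 adjusted over 39.
With an offset that removed each library's GC curve, the SD of the arm changes was 0.0061. None of the arms was called (0%; smallest adjusted p = 0.938), and 11p and 9q had an unadjusted p-value under 0.05 (5.13%). The change of 4q was then -0.0037 (SE 0.0031) and that of 22q -0.0020 (SE 0.0046), while 11p kept 0.0144 (SE 0.0060, unadjusted p = 0.0289, adjusted p = 0.938 by edgeR) and 9q had -0.0078 (SE 0.0036). The largest change in size was that of 19p, -0.0211, with a far wider SE of 0.161. Each SE was computed as the size of the log2 change over the square root of its F statistic, so the SE of 19p reflects a small F. None was given where F was negligible, as for 4p (0.0035). The arm p-values and SEs with the offset carry little weight. With a straight line in GC in place of the curve 15q was called (-0.0175, adjusted p = 0.0068). The offset takes out any part of the cisplatin effect that follows GC content together with any that belongs to the library.

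**Figure D3:**
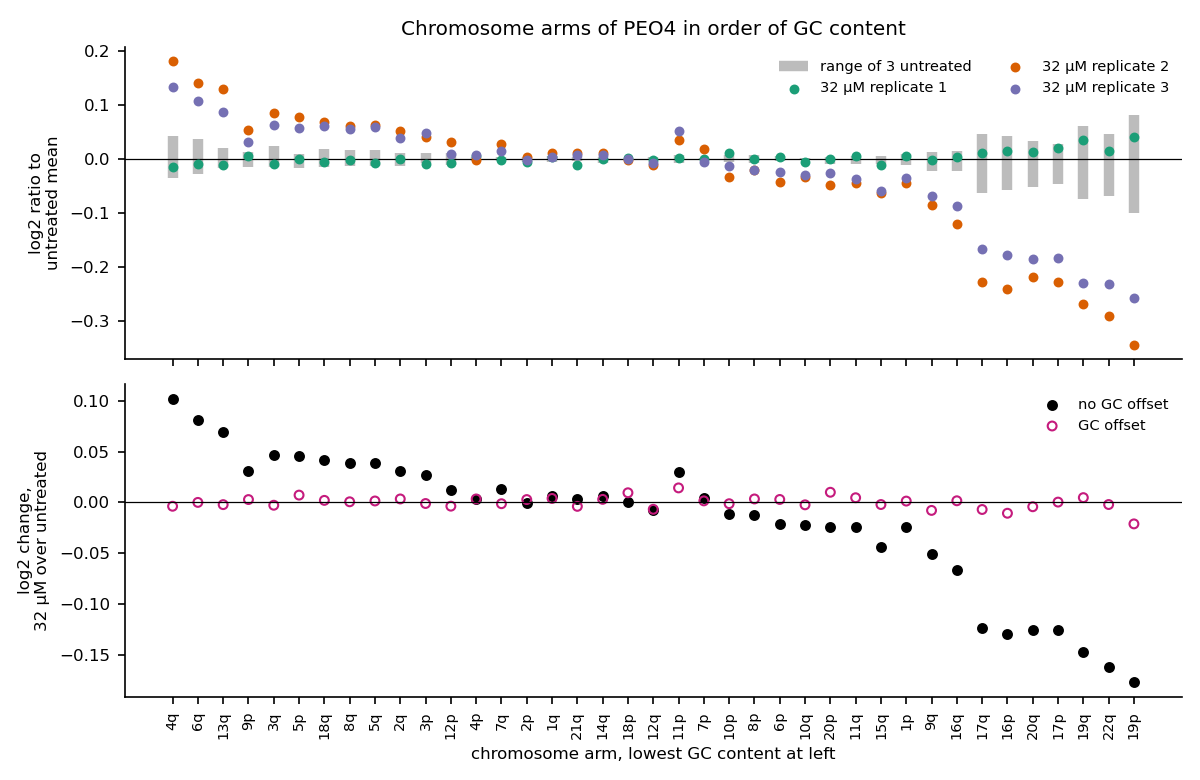
The 39 arms in order of GC content (x axis). Above, the log2 ratio of each 32 µM library to the untreated mean over the range of the 3 untreated libraries (grey); below, the fitted log2 change of the group without and with the GC offset. Replicates 2 and 3 follow GC content from 0.18 and 0.13 at 4q to -0.34 and -0.26 at 19p, replicate 1 stays within 0.05 of 0, and the changes with the offset lie between -0.02 and 0.01.

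In 1 Mb bins no bin was called without the GC offset (0%; smallest adjusted p = 0.365) or with it (0%; smallest adjusted p = 0.419). At an unadjusted p-value under 0.05 there were 255 bins without the offset (9.48%), of which 194 were higher (7.21%) and 61 lower (2.27%) at 32 µM. With the offset there were 179 (6.65%), 97 higher and 82 lower. A straight line in GC in place of the curve called 28 bins, and DESeq2 and limma called 0 in both fits. The SD of the log2 changes was 0.121 without and 0.0347 with the offset, and across bins the change without it correlated with GC content at r = -0.926 (n = 2691, a description across bins that share libraries). All 3 treated libraries were above the untreated ones in 159 bins (5.91%) and below them in 149 (5.54%), with a median GC content of 38.5% in the first and 42.7% in the second.
Of the 4 higher bins with the smallest p-values, 2 held no tested gene body. The bin chr13:82000001-83000000 (34.56% GC), which holds no tested gene body, took 168, 178 and 160 CPM untreated and 185, 227 and 208 at 32 µM. The groups did not overlap, replicate 1 was the lowest of the treated libraries, and the log2 change was 0.28 (SE 0.0764, unadjusted p = 0.00279, adjusted p = 0.365) and 0.10 with the offset. The bin chr3:80000001-81000000, also without a tested gene body, took 327, 329 and 318 untreated and 340, 428 and 406 at 32 µM, a log2 change of 0.26 and of 0.07 with the offset. The bin chr3:158000001-159000000, which spans the splicing factor gene RSRC1, had a log2 change of 0.13 (SE 0.0420) and of 0.07 with the offset. In chr5:63000001-64000000, with RNF180 and RGS7BP, the values were 0.17 (SE 0.0546) and 0.08.
The lower bins with the smallest p-values had higher GC content, and in some of them the 3 treated libraries had nearly the same level. The bin chr3:140000001-141000000 (42.15% GC), with the synaptic adhesion gene CLSTN2, took 416, 409 and 416 CPM untreated and 381, 381 and 387 at 32 µM. Replicate 1 was as low as the others, and the log2 change was -0.12 (SE 0.0360, unadjusted p = 0.00523) and -0.06 with the offset. The bin chr5:174000001-175000000, with the mitochondrial serine transporter gene SFXN1, took 423, 408 and 414 untreated and 392, 378 and 383 at 32 µM, a change of -0.12 (SE 0.0319) and of -0.04 with the offset. In chr13:31000001-32000000, with the chromatin protein gene HMGB1, the change was -0.15 (SE 0.0474) and -0.06, and in chr12:118000001-119000000, with the kinase genes KSR2 and TAOK3, it was -0.18 (SE 0.0584) and -0.08.
Among the 4 higher bins named with the offset the groups overlapped in 3, since replicate 1 stood apart from replicates 2 and 3 there. The first Mb of chromosome 4, with the clathrin uncoating kinase gene GAK, had a log2 change of 0.10 (SE 0.0246, unadjusted p = 0.000156, adjusted p = 0.419) against -0.08 without the offset, and its CPM were 874, 832 and 886 untreated and 909, 765 and 789 at 32 µM. Replicate 1 was the highest and replicates 2 and 3 the lowest of the 6. The bin chr5:140000001-141000000, which holds the alpha and gamma protocadherin clusters of neuronal adhesion proteins, took 412, 403 and 394 untreated and 419, 431 and 414 at 32 µM. There the groups did not overlap and the change was 0.10 with the offset and 0.05 without. Protocadherin genes are near copies of each other, and reads could be split between them. The lower bin with the smallest p-value with the offset, chr13:70000001-71000000 (KLHL1), had -0.13 (SE 0.0374), and its groups overlapped.

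The share of all counts that fell inside gene bodies of at least 50 kb was nearly the same in all 6 libraries. It was 40.66%, 40.62% and 40.69% untreated and 40.64%, 40.51% and 40.67% at 32 µM, for gene bodies that cover 36.6% of windows. Treated replicate 2 was the lowest of the 6 and the groups overlapped. The mean log2 difference was -0.0019 (exact two-sided permutation test, p = 0.5), and -0.0007 when windows inside and outside gene bodies were compared within 61 strata of equal GC content (p = 0.6). The direction depended on the choice of genes: the difference was 0.01247 with bodies of at least 100 kb and 0.01127 with long non-coding genes added (exact permutation test, p = 0.3 for both). Transcription-coupled repair acts on the transcribed strand of active genes, and counts that join both strands and all genes cannot separate it.

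Among gene bodies, no gene was called without the GC offset (0%; smallest adjusted p = 0.520) or with it (0%; smallest adjusted p = 0.460). Without the offset 576 genes had an unadjusted p-value under 0.05 (8.87%), 369 of them higher (5.68%) and 207 lower (3.19%). With the offset there were 397 (6.11%), 203 higher and 194 lower. DESeq2 without the offset called 2 genes, HIF1A (adjusted p = 0.0121) and DAGLB (adjusted p = 0.0159), and limma called 0; with the offset both called 0, and a straight line in GC in place of the curve called 6. All 3 treated libraries were above the untreated ones in 434 genes (6.68%) and below them in 557 (8.57%). Some gene bodies overlap and share windows, as in the protocadherin clusters, so these counts of genes are not counts of separate stretches. The median GC content was 37.7% in the first set and 44.4% in the second, against 41.0% over all tested genes. The log2 changes had an SD of 0.153 and 0.0914 with the offset, 13 were past 0.5 in size (2 with the offset), and none was past 1.

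The gene bodies higher at 32 µM with the smallest p-values were AT-rich, and in some of them all 3 treated libraries stood together. HIF1A (chr14:62162231-62214977, ENSG00000100644), the oxygen-regulated subunit of a transcription factor of the hypoxia response, took 20.7, 16.5 and 19.9 CPM untreated and 26.3, 26.0 and 27.9 at 32 µM. The groups did not overlap and replicate 1 was as high as replicate 2. The log2 change was 0.52 (SE 0.107, unadjusted p = 0.000155, adjusted p = 0.520 by edgeR) and 0.39 with the offset (SE 0.106, adjusted p = 0.460).
TMEM196, a transmembrane protein gene on chromosome 7, took 10.7, 9.55 and 9.85 untreated and 14.56, 14.05 and 14.34 at 32 µM, treated values within a narrow range and all above the untreated ones. The mean count of TMEM196 was 440 per library, below the gene body median, so its counting error is above the typical one. Its log2 change was 0.54 (SE 0.128) and 0.34 with the offset. REV3L, the catalytic subunit of the translesion polymerase zeta that extends past cisplatin crosslinks, took 70.3, 76.5 and 75.5 untreated and 86.4, 91.5 and 93.5 at 32 µM. All 3 treated libraries were above the untreated ones, and the log2 change was 0.31 (SE 0.0824, unadjusted p = 0.00150, adjusted p = 0.520) and 0.18 with the offset (SE 0.0576).
TRDMT1, a tRNA cytosine methyltransferase, took 22.01, 24.09 and 20.46 untreated and 25.6, 30.4 and 32.5 at 32 µM. The sperm surface gene ADAM2 took 32.7, 33.2 and 35.4 untreated and 35.98, 50.09 and 44.27 at 32 µM. In both, replicate 1 was only just above the highest untreated library, and the offset took ADAM2 to 0.16. GUCY2C, the intestinal receptor for guanylin, took 32.2, 30.4 and 24.5 untreated and 35.7, 34.1 and 40.6 at 32 µM, a change of 0.37 (SE 0.106) and 0.31 with the offset. The other genes of this set (the lipase-related PNLIPRP3, the phosphodiesterase PDE1A, the endothelial adhesion receptor ADGRL4 and the ubiquitin hydrolase UCHL3) had log2 changes of 0.31 to 0.55 and of 0.12 to 0.47 with the offset.

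The gene bodies lower at 32 µM with the smallest p-values had more GC content than the higher ones. DAGLB (chr7:6448757-6523821, ENSG00000164535), a lipase that makes the endocannabinoid 2-arachidonoylglycerol, took 18.5, 18.9 and 19.4 CPM untreated and 14.2, 11.3 and 11.2 at 32 µM. The untreated values were close together and all treated values were below them. The log2 change was -0.61 (SE 0.129, unadjusted p = 0.000210, adjusted p = 0.520) and -0.43 with the offset (SE 0.124, adjusted p = 0.460).
CHEK2 (chr22:29083731-29138410), a checkpoint kinase activated by ATM, took 12.0, 12.8 and 15.1 untreated and 10.6, 7.47 and 9.76 at 32 µM. The groups did not overlap, and the log2 change was -0.49 (SE 0.148, unadjusted p = 0.00385, adjusted p = 0.520) and -0.42 with the offset. Part of CHEK2 has near-identical pseudogene copies, and the count of its body is uncertain to that extent. The mean count of CHEK2 was 401 per library, below the gene body median, so its counting error is above the typical one. ABRAXAS1, the scaffold of the BRCA1-A complex that recognises ubiquitin at double-strand breaks, took 16.2, 15.6 and 13.6 untreated and 12.7, 9.22 and 10.9 at 32 µM. Replicate 2 was the lowest in both genes, and the log2 change of ABRAXAS1 was -0.45 (SE 0.135) and -0.42 with the offset.
CMTM8, a membrane protein of the MARVEL family, took 66.0, 63.3 and 62.8 untreated and 53.8, 47.9 and 51.6 at 32 µM, a change of -0.30 (SE 0.0778) and -0.24 with the offset. DNAH1, an axonemal dynein chain with a body of 55.24% GC, took 27.0, 22.9 and 24.7 untreated and 20.6, 13.9 and 17.3 at 32 µM, and its change of -0.50 was -0.31 with the offset. The remaining lower genes were the zinc receptor GPR39, the phosphoinositide-binding PLEKHA2, the pteridine reductase QDPR, the sorbitol dehydrogenase SORD and ENSG00000256966, which has no symbol in the annotation. They had changes of -0.21 to -0.38 and of -0.16 to -0.26 with the offset.

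**Figure D4:**
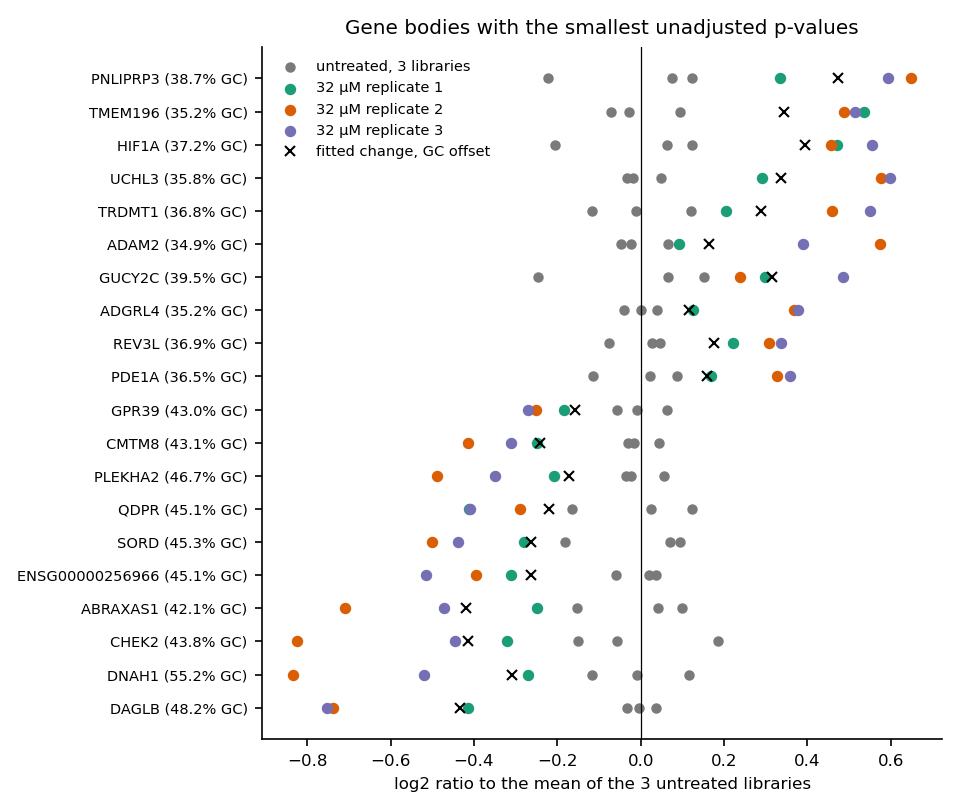
The 20 gene bodies with the smallest unadjusted p-values without the GC offset, 10 in each direction, with their GC content. The x axis is the log2 ratio of each library to the untreated mean, grey points are the untreated and coloured points the treated libraries, and crosses are the fitted change with the GC offset, which is closer to 0 than the change without it for each gene (HIF1A 0.39 against 0.52, DAGLB -0.43 against -0.61).

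The p-values with the GC offset named 4 further genes whose groups did not overlap. IRS1, the adaptor of the insulin receptor, took 26.7, 25.7 and 21.3 CPM untreated and 32.3, 29.8 and 33.4 at 32 µM. Its change was 0.39 with the offset (SE 0.0996, unadjusted p = 0.000138, adjusted p = 0.460) and 0.40 without. ZNF208, a zinc finger gene in a cluster of similar genes on chromosome 19, took 27.6, 29.8 and 26.0 untreated and 21.7, 22.1 and 23.6 at 32 µM. Its change was -0.38 with the offset and -0.28 without, and reads could be shared with its neighbours. VEZT, which encodes the adherens junction protein vezatin, took 36.06, 38.03 and 40.08 untreated and 29.9, 34.9 and 30.5 at 32 µM, with a change of -0.32 and of -0.24 without the offset.
GLDN, an adhesion gene of the node of Ranvier, took 25.1, 25.7 and 25.0 CPM untreated and 29.1, 26.4 and 30.7 at 32 µM, and had 0.31 with the offset and 0.21 without. TMEM132B (0.13) and ASCC3 (-0.16), the helicase of a complex in alkylation repair, were named by the offset alone, and their groups overlapped. In ASCC3 replicate 1 stood at a log2 ratio of -0.28 and replicates 2 and 3 at 0.27 and 0.19.

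The difference was spread along the leading genes and did not sit in 1 window. In HIF1A the windows of the 5′, middle and 3′ parts of equal length differed by 0.51, 0.59 and 0.38 on the log2 scale, and 40 of its 59 windows (67.8%) were higher on average at 32 µM. The groups overlapped in the 3′ part. In DAGLB the same parts differed by -0.66, -0.57 and -0.69, all without overlap, and 59 of 84 windows (70.2%) were lower. TMEM196 had 0.23, 0.55 and 0.73, with overlap in the 5′ part, and CMTM8 had -0.47, -0.27 and -0.26. These genes were picked by p-value from the same counts, and no share of windows was taken for other genes. Leaving out the window that contributed most left a difference of 0.46 in HIF1A, 0.47 in TMEM196, -0.63 in DAGLB and -0.31 in CMTM8, against 0.50, 0.51, -0.64 and -0.33 with all windows.

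HIF1A, DAGLB, REV3L and CHEK2 at the lower dose are set beside their values at 32 µM. The 16 µM and 32 µM groups share the untreated libraries, so the 2 differences are not independent. The genes were picked by p-value at 32 µM, and the untreated values that helped to pick them also enter the differences at 16 µM. The HIF1A log2 ratios at 16 µM were 0.28, 0.24 and 0.21 (mean difference 0.24), without overlap with the untreated libraries. The DAGLB ratios were -0.26, -0.27 and -0.14 (mean difference -0.23), also without overlap. REV3L had 0.14, -0.06 and 0.08 and CHEK2 had -0.22, -0.04 and -0.16, both with overlap. In PEO1 at 16 µM against its own untreated libraries the mean differences were 0.11 for HIF1A, 0.06 for DAGLB, -0.04 for REV3L and 0.06 for CHEK2, with overlap in all 4. Among the other named genes, TMEM196 was higher in PEO1 (0.24) and ADAM2 (-0.16) and PLEKHA2 (-0.12) lower, without overlap. TMEM196 at 16 µM in PEO4 had 0.23, 0.43 and 0.02, with overlap. The share of all tested genes without overlap at 16 µM was not computed, so a lack of overlap at that dose has no background to be read against.

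Lists of genes by role were read against all tested genes, which had a median log2 change of 0.00 with 49.3% above 0, and of 0.00 with 50.6% above 0 with the GC offset. At an unadjusted p-value under 0.05 without the offset, 5.68% of all tested genes were higher and 3.19% lower, the background for the counts of each list. For counts with the offset the background was 203 higher and 194 lower of 6497 genes (6.11% together). No gene of any list was called in either fit. For damage recognition and excision repair, 12 of 31 listed genes were long enough and tested. Their median change was -0.01, with 1 gene higher and 2 lower at an unadjusted p-value under 0.05 (background 5.68% and 3.19%). With the offset 3 were higher and 1 lower at that p-value (background 203 and 194 of 6497), while 4 of the 12 were above 0 (33.3%) and the median was -0.02. The genes past that p-value without the offset were ERCC8, the CSA subunit of transcription-coupled repair (0.34), the deubiquitinase USP7 (-0.21) and CHEK2. UVSSA, another factor of transcription-coupled repair and the most GC-rich of the list (56.97%), was 1 of the 3 higher with the offset. Its change there was 0.20 (unadjusted p = 0.0225 by edgeR). Before the offset its ratios were 0.29, -0.18 and -0.18 in replicates 1, 2 and 3, so only replicate 1 was above the untreated mean. ATR (37.07% GC), the kinase that senses stalled forks, had the opposite order with -0.08, 0.13 and 0.17. PRKDC, the longest of the list and the catalytic subunit of DNA-PK in end joining, had -0.09 (SE 0.0641).
Of the genes of homologous recombination and the Fanconi anaemia pathway 21 of 30 were tested, 14 were above 0 (66.7%), and none had an unadjusted p-value under 0.05. With the offset 9 were above 0 (42.9%) and the median was -0.01. The AT-rich helicase gene BRIP1 (36.05% GC) had log2 ratios of -0.04, 0.36 and 0.24 in replicates 1, 2 and 3, a change of 0.22 (SE 0.105) that was 0.04 with the offset. FANCA, the most GC-rich (50.92%), had -0.09, -0.42 and -0.21, a change of -0.21 that was -0.01 with the offset. FANCL, the ubiquitin ligase of the pathway and the least GC-rich (34.71%), had -0.31, 0.32 and 0.23. RAD51B, the longest with a body of 910 kb, had 0.03 (SE 0.0483).
For mismatch repair and translesion synthesis 13 of 19 were tested, with a median of 0.07 (-0.02 with the offset). REV3L and HLTF, a helicase and ubiquitin ligase of damage tolerance (0.32), were higher at an unadjusted p-value under 0.05, and none was lower; with the offset REV3L alone was past that p-value.
Of the genes for platinum transport and detoxification 13 of 20 were tested, and 3 were above 0 (23.1%), with a median of -0.12 (-0.03 with the offset). The efflux pump gene ABCB1 (37.02% GC) had 0.08, 0.17 and 0.26, above all untreated libraries, and a change of 0.19 (SE 0.0898, unadjusted p = 0.0466, adjusted p = 0.520) that was 0.06 with the offset. At an unadjusted p-value under 0.05 ABCB1 was the 1 gene of the list, and with the offset 1 gene was lower. ABCC3, a GC-rich transporter gene (51.78%), had 0.13, -0.32 and -0.33.
Among 17 tested of 24 drivers of serous ovarian cancer the median was 0.07 (0.02 with the offset), and 1 was higher at an unadjusted p-value under 0.05 (1 lower with the offset). The very long and AT-rich CSMD3 had -0.06, 0.36 and 0.22. The CSMD3 change was 0.21 without the offset and -0.06 with it. FGFR1, the growth factor receptor of highest GC content in the list, had -0.15 (SE 0.148).

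The listed fragile site and neuronal genes had a lower median GC content than all tested genes (41.0%). Their median log2 ratios were above 0 in replicates 2 and 3 at 32 µM. The 22 tested genes of common fragile sites, regions that break under replication stress, had a median body of 1470 kb and a median GC content of 37.1%. Of these 19 were above 0 (86.4%), with a median log2 change of 0.15, and 4 were higher and 1 lower at an unadjusted p-value under 0.05 (background 5.68% and 3.19%). The median was -0.01 in replicate 1, 0.22 in replicate 2 and 0.16 in replicate 3. With the offset 13 were above 0 (59.1%), the median was 0.00, and 0 were higher and 1 lower at that p-value. The lipoprotein receptor gene LRP1B had -0.05, 0.32 and 0.24 and went from 0.20 to -0.02. RBFOX1, the longest of the list, was not AT-rich (42.37% GC) and was not higher in replicates 2 and 3. It had 0.04, -0.08 and -0.09 and went from -0.02 to 0.02.
WWOX, by contrast, had log2 ratios of -0.20, -0.24 and -0.18, all below the untreated libraries. Its change was -0.18 (SE 0.0714, unadjusted p = 0.0197, adjusted p = 0.520) and -0.14 with the offset. Of its 1237 windows 62.0% held no count in any of the 6 libraries, against 8.7% of all windows, so its value rests on the 3′ part of the gene.
The 35 long neuronal receptor, channel and adhesion genes had a median GC content of 37.8%, with 28 above 0 (80.0%) and a median of 0.13, and 8 were higher and 0 lower at an unadjusted p-value under 0.05 (background 5.68% and 3.19%). With the offset 22 were above 0 (62.9%), the median was 0.01, and 0 were past that p-value. Their medians in replicates 1, 2 and 3 were -0.01, 0.13 and 0.16. The cadherin gene CDH12 had 0.05, 0.28 and 0.27, and the AMPA receptor gene GRIA2 0.14, 0.45 and 0.27. The calcium channel gene CACNA1A, the most GC-rich of this list (47.48%), had 0.05, -0.34 and -0.26. The 35 long genes of broad expression, of shorter bodies and a median GC content of 40.3%, had 20 above 0 (57.1%), a median of 0.03, and none with an unadjusted p-value under 0.05 (1 lower with the offset). In that list DNM2, a dynamin of endocytosis with 53.08% GC, had 0.03, -0.29 and -0.32, and BIRC6, an inhibitor of apoptosis with 37.68% GC, had 0.07, 0.17 and 0.11.

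Leaving out each library in turn showed which replicates carried the difference. Without treated replicate 1 the bins with an unadjusted p-value under 0.05 were 1267 (47.1%), the gene bodies 1710 (26.3%) and the arms 25 (64.1%). The smallest adjusted p-values were 0.0734, 0.112 and 0.0581, so that no region was called. Without treated replicate 2 the bins were 21 (0.780%) and the gene bodies 193 (2.97%), and without treated replicate 3 they were 59 and 271. Without untreated replicate 1, 2 or 3 the bins were 73, 276 and 42. With the GC offset the same 6 fits gave 121 to 212 bins and 284 to 485 gene bodies. The labels used here name no batch of preparation or sequencing, so no values within a batch could be given.

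**Figure D5:**
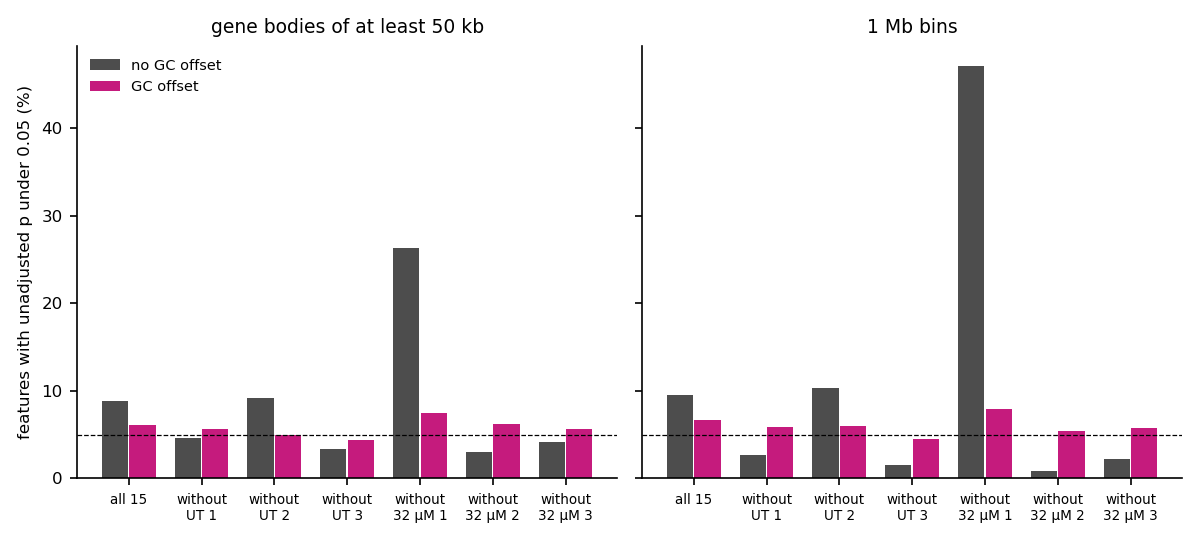
Percent of regions with an unadjusted p-value under 0.05 (y axis) in the fit of all 15 libraries and without each untreated (UT) or 32 µM library in turn (x axis), for gene bodies and 1 Mb bins. Without the offset the values reach 26.3% and 47.1% when treated replicate 1 is left out, and with the GC offset they stay close to the dashed line at 5%.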

How the data were processed

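The authors prepared Pt-exo-seq libraries, trimmed the reads, aligned them to hg19 with Bowtie2, removed blacklisted regions and removed duplicates with Picard; versions are not given in the sources used here. The deposited values are raw read counts per 1 kb window, stepped by 900 bp, so neighbouring windows overlap and some reads enter 2 windows. The ends of all 24 chromosomes matched GRCh37. The study's filter of windows by ATAC-seq depth was not applied. Total counts ran from 27705392 to 56643611 over the 15 libraries. Without molecular identifiers reads are not independent molecules, and counting errors cover counting only.

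Counts on chromosomes 1 to 22 were summed by window midpoint over protein-coding gene bodies of at least 50 kb (6519 of 19229 genes in GENCODE release 44 mapped to GRCh37), 1 Mb bins and arms. Regions with a mean count of at least 50 entered the test, which was the quasi-likelihood test in edgeR (version 4.0.16, run under R 4.3.3). It used 5 group means over the 15 libraries, with TMM factors (library size for arms), trended dispersions and Benjamini-Hochberg adjustment over all tested regions; an adjusted p-value under 0.05 was a call. The GC offset was a natural spline with 4 degrees of freedom in GC content, fitted in each library to its log2 ratio over the average untreated profile of PEO4 or PEO1. For arms the curve came from 1 Mb bins. The SE of a fitted log2 change was its size divided by the square root of its F statistic, and none was given where F was negligible. Log2 ratios add 0.5 to each count. Values per library were compared by exact two-sided permutation tests. Alternatives included DESeq2 1.42.0 and limma 3.58.1 with a prior count of 2. The scripts were tested on simulated data.

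Regions named in the text were those with the smallest p-values in each direction (genes: 10 without and 5 with the offset, at least 1 Mb apart; bins: 4 in each fit, at least 5 Mb apart), the 4 highest and 4 lowest arms, and in each list the longest, the most and the least GC-rich gene and that with the smallest p-value. The lists, regions and tests were chosen with earlier results of these data known. Other list genes, the parts of genes and the levels per kb were chosen after their values were seen. Some list genes chosen by this rule are not reported here.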

Additional observations from a re-analysis of the deposited data

How the results depend on the processing

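No region was called at any scale, and most alternatives gave the same count of 0. The exceptions were DESeq2 without the GC offset, which called 2 gene bodies (HIF1A, adjusted p = 0.0121, and DAGLB, adjusted p = 0.0159), the fit of only the 6 compared libraries with the offset, which called 1 bin (the first Mb of chromosome 4), and a straight line in place of the GC spline, which called 6 gene bodies, 28 bins (25 higher and 3 lower) and 1 arm (15q, -0.0175). The smallest adjusted p-value over the other alternatives for gene bodies was 0.112 without and 0.116 with the offset. The log2 difference in the gene body share reversed to 0.01247 with bodies of at least 100 kb and to 0.01127 with long non-coding genes (exact p = 0.3 for both). At matched GC it reversed to 0.00523 and 0.00552 (exact p = 0.2 for both), and leaving out 1 replicate gave -0.00217 to 0.00003. The cause was not tested. Over 62 named results and 1004 alternative values, 9 arm values with the offset reversed, and no value of a named gene did. They were 20p, 18p and 5p with TMM factors (-0.0035, -0.0040 and -0.0063), 5p and 16p with every other window (-0.0014 and 0.0021), and 20p, 18p, 19p and 17q with the straight line (-0.0049, -0.0047, 0.0168 and 0.0102), all close to 0. Whether equal replicate numbers mark pairs could not be told. Deviations of same-numbered untreated and treated libraries from their group means correlated at 0.447, 0.82 and -0.587 over bins. Those of differently numbered libraries ran from -0.847 to 0.766. These deviations still held the GC slope of each library, so they cannot decide on pairs. With the replicate number as a block the counts at an unadjusted p-value under 0.05 were 264 gene bodies, 49 bins and 0 arms, and with the block and the GC offset 389 gene bodies, 172 bins and 0 arms, and the calls stayed at 0. Without the block, the fit of only the 6 libraries gave 896 gene bodies at that p-value, and the straight line 287 bins. The blocked GC slope difference was -0.25 (exact sign-flip p = 0.25, the smallest possible with 3 pairs). Depth limits single gene bodies most, where counting alone gave an SD of 0.0468 to 0.0485 in the treated libraries.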

Other observations

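Copy number and mappability enter these counts, and 1 gene of the lists stood apart in level. WWOX, a tumour suppressor gene across the fragile site FRA16D, had a level of 0.069, 0.067 and 0.073 CPM per kb in the untreated PEO4 libraries and 0.060, 0.058 and 0.061 at 32 µM, against a median of 0.404 over all tested gene bodies (5th percentile 0.190). It ranked 32 from the lowest of 6497. When the gene was cut into 10 equal parts from its 5′ end, the 6 parts at the 5′ end of the gene held 0.020, 0.001, 0.001, 0.001, 0.0 and 0.0 CPM per kb over the untreated libraries, and the next 4 held 0.081, 0.191, 0.192 and 0.204. The untreated PEO1 libraries had the same low level over the whole gene (0.073, 0.065 and 0.073). FHIT, in the fragile site FRA3B, had no such gap, with 0.167 to 0.210 in its 10 parts and 0.5% of windows without a count. This was noticed in the data and not tested.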
